A study of Mus musculus with 5 samples.

Results

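The genes described here are 10 receptors of the TNF receptor superfamily, measured in group 2 innate lymphoid cells (ILC2s) of the mouse lung: Tnfrsf4, Tnfrsf8, Tnfrsf9, Tnfrsf18, Tnfrsf25, Tnfrsf1a, Tnfrsf1b, Cd27, Fas and Ltbr. Each was taken from a probe set that the platform annotation pairs with that symbol alone, and all 10 were found, among 22180 genes named in this way. Each had 1 such probe set. A further probe set that names Tnfrsf18 together with a second gene was left out. The study held 5 arrays of total RNA from lung ILC2s of naive mice labelled male, 3 of the genotype Wildtype and 2 of the genotype Knockout, the latter from IL-33 knockout mice. All mice are labelled naive, and no treatment is given. The labels call each array a biological replicate and give no strain, age, knockout allele, number of mice per array or sorting gate. The design asks which transcripts of resting lung ILC2s differ where IL-33, an alarmin that activates these cells, is missing.

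Receptors of this superfamily bind trimeric ligands of the TNF family through cysteine-rich repeats outside the cell. Most recruit TRAF adaptors inside it, which start NF-kB and MAP kinase signalling and support the survival, division and cytokine output of lymphocytes, while a smaller branch carries a death domain that can recruit caspases. On ILC2s the family is best known through GITR and DR3, which promote type 2 cytokine release when they meet their ligands.

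The 5 arrays had closely similar distributions. The lower quartile of all probe sets lay between 3.24 and 3.27, the median between 4.29 and 4.33 and the upper quartile between 5.57 and 5.73 on the log2 scale. Of 14 ILC2 markers, 12 had a probe set and 11 of these, among them Gata3, Il7r, Il2ra and Klrg1, lay above the upper quartile on every array; Il1rl1 and Areg were not analysed here. Of the markers of other cells, the T cell gene Cd3g and the endothelial gene Pecam1 lay above it on every array, and no B cell, myeloid, NK cell, regulatory T cell, epithelial or fibroblast marker did. Il33 read 3.32 to 3.39 in wild type and 3.79 and 3.95 in knockout, dim in both, and its probe set does not check the genotype. The knockout arrays stood apart from each other, with a Pearson correlation of 0.893 over probe sets against 0.929 to 0.933 between wild-type arrays. Knockout replicate 2 had a Xist signal of 7.91, against 2.35 to 3.10 on the other arrays, with the Y-linked Uty at 7.17 and Eif2s3y at 6.14, so that its RNA goes in part against the label of male. Knockout replicate 1 had the airway transcripts Scgb1a1 and Bpifa1 at 8.81 and 8.52, against at most 5.01 and 3.22 in wild type. Knockout replicate 2 had Scgb1a1 at 5.93. It also had Gzma, on the NK cell list, at 6.56, against 3.27 to 4.01 on the other arrays. Wild type replicate 2 had the myeloid Lyz2 at 5.58, against 2.47 to 3.77 on the other arrays. Some further markers of other cells were higher in both knockout replicates. The endothelial Cldn5 read 5.95 and 6.68, against at most 5.13 in wild type, and Cdh5 6.26 and 7.14, against at most 5.68. The epithelial Sftpc read 5.90 and 5.74, against at most 5.31. Of 6 endothelium markers tested, 2 were higher and 1, Kdr, was lower without overlap, against 11.6% and 6.32% of all genes tested. Kdr read 4.18 and 4.30 in knockout and 4.39 on each wild-type array. Of 9 epithelium markers tested, 3 were higher and 0 lower without overlap. Because the knockout arrays stood apart in these ways, results are also given by single knockout array. The part of these features in any result was not tested.

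None of the 10 receptor genes differed between genotypes past the threshold. With limma, 0 of 10 passed an adjusted p of 0.05, as did 0% of the 16635 genes tested, and the members' adjusted p ran from 0.564 to 0.913. At an unadjusted p below 0.05 there was 1 member, Tnfrsf1a, against 7.64% of all genes tested. The groups did not overlap for 3 of 10 members, Tnfrsf18 and Tnfrsf1a being higher and Tnfrsf25 lower in both knockout arrays. Over all genes tested the groups did not overlap for 18.0%, with 11.6% higher and 6.32% lower. The members' median difference, knockout minus wild type, was 0.13 on the log2 scale, against 0.0385 over all genes tested, with 8 above and 2 below 0. In RNA of a whole sample, fewer cells of a type and less RNA per cell cannot be told apart. The probe sets of different genes bind with different strength, so a signal is compared between arrays and not between genes. The position against the quartiles shows only how far a probe set lies from the dim end of the array.

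**Figure D1:**
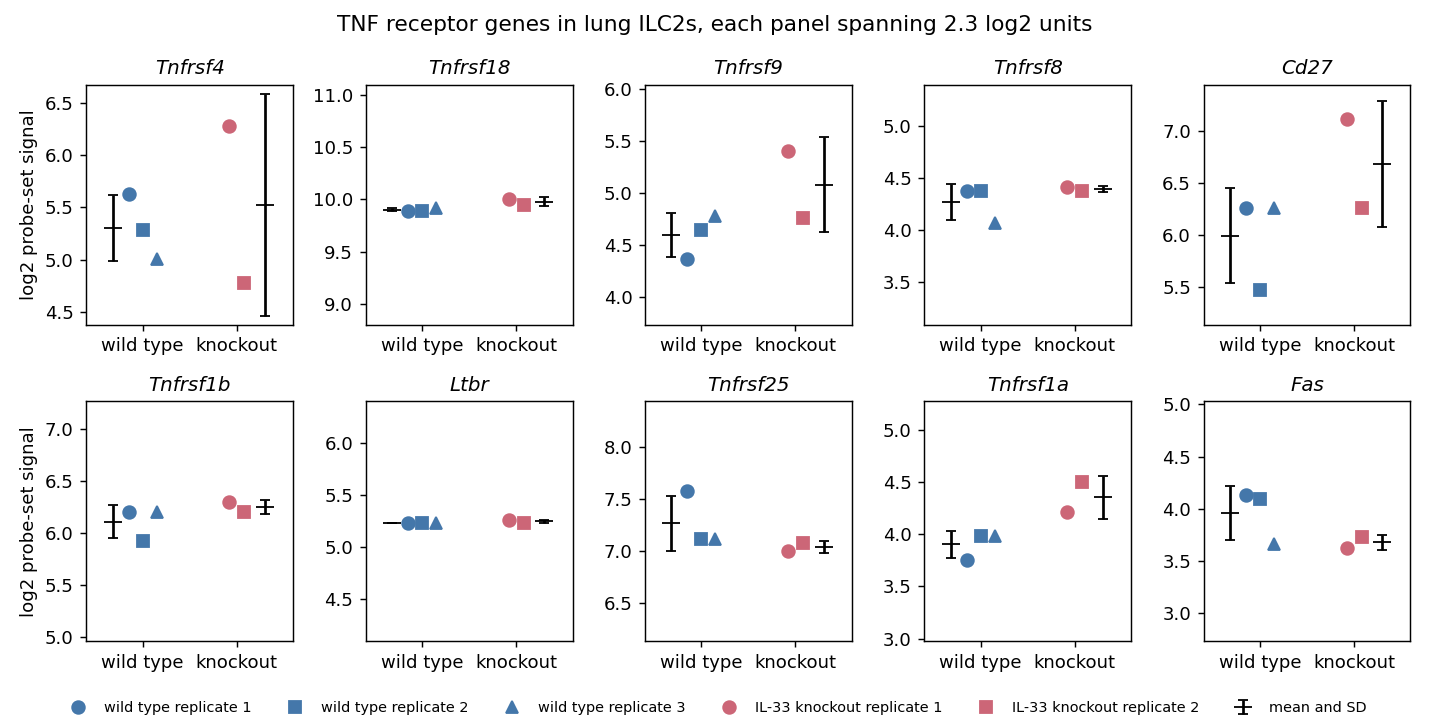
Log2 probe-set signal (vertical axis) of each of the 10 receptor genes in the 3 wild-type and 2 knockout arrays, 1 point per array, with group means and SD as black bars; every panel has the same span. Tnfrsf4, Tnfrsf9 and Cd27 are spread most, each with knockout replicate 1 highest, while Tnfrsf18 and Ltbr hardly vary. For Tnfrsf4 knockout replicate 2 is the lowest array, and for Cd27 wild type replicate 2 is.

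Among the costimulatory receptors, Tnfrsf18 encodes GITR, which on ILC2s responds to GITR ligand and raises cytokine output. Its signal was 9.89, 9.89 and 9.92 in wild type and 10.01 and 9.95 in knockout, higher than 98.9% of probe sets on each array. Both knockout arrays exceeded the highest wild-type array by a small margin: the means were 9.98 ± 0.04 (SD, n = 2) and 9.90 ± 0.01 (SD, n = 3). The difference was 0.08 (SE 0.04), with a 95% interval of -0.04 to 0.20, and limma's adjusted p was 0.623. The interval is limma's for a single gene and does not allow for the number of genes. After quantile normalization the difference was -0.0059, so its direction depends on the scaling.

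Tnfrsf4 encodes OX40, whose ligand on dendritic and other cells sustains type 2 responses. It read 5.63, 5.28 and 5.0 in wild type and 6.28 and 4.77 in knockout. The knockout arrays enclosed the wild-type arrays from both sides, replicate 1 above and replicate 2 below all of them. The difference of the means, 0.22 (SE 0.54), therefore described neither array: it was 0.97 without knockout replicate 2 and -0.53 without knockout replicate 1. Its 95% interval, -1.29 to 1.72, was the widest of the 10. In the mouse assembly GRCm38.p6 Tnfrsf4 and Tnfrsf18 are neighbours on chromosome 4 with no protein-coding gene between them, yet the spread of the 2 probe sets over arrays was unlike.

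Tnfrsf9 encodes 4-1BB, an activation-induced receptor of lymphocytes. It read 4.37, 4.65 and 4.79 in wild type and 5.40 and 4.76 in knockout. Only knockout replicate 1 stood above the wild-type arrays; replicate 2 lay inside their range. The difference was 0.48 (SE 0.25, adjusted p 0.623), and 0.16 without knockout replicate 1. Tnfrsf8 encodes CD30, likewise a receptor of activated lymphocytes, and read 4.07 to 4.37 in wild type and 4.42 and 4.37 in knockout, close to the array median. Knockout replicate 2 held the same value as a pair of wild-type arrays, and the difference was 0.12 (SE 0.12, adjusted p 0.687).

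Cd27 encodes the receptor of CD70, which supports the survival of T cells. Its signal was 6.25, 5.47 and 6.25 in wild type and 7.11 and 6.25 in knockout. Knockout replicate 1 lay above all wild-type arrays, and replicate 2 held exactly the value of wild type replicates 1 and 3. Of the members it had the widest difference, 0.69 (SE 0.41, 1.61-fold), with a 95% interval of -0.46 to 1.84 and an adjusted p of 0.623. Without knockout replicate 1 the difference was 0.26. The 3 genes whose centred values over the 5 arrays lay nearest to those of Cd27 were Ubl3, Ccny and Ciao2b, at Euclidean distances of 0.0769, 0.102 and 0.104 log2 units. Ubl3 and Ccny, like Cd27, each held one equal value in wild type replicates 1 and 3 and knockout replicate 2.

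Tnfrsf1b encodes TNFR2, the TNF receptor without a death domain, which carries growth and survival signals in lymphocytes. It read 6.20, 5.92 and 6.20 in wild type and 6.30 and 6.20 in knockout, above the upper quartile on all 5 arrays. The groups overlapped, and the difference was 0.14 (SE 0.12) with a 95% interval of -0.18 to 0.46. Ltbr encodes the lymphotoxin beta receptor, which is known mainly from stromal and myeloid cells. Its probe set held 5.24 on all 3 wild-type arrays and on knockout replicate 2, and 5.26 on knockout replicate 1, so the SD of wild type was 0 and the difference 0.01 (SE 0.04).

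The members with a death domain were Tnfrsf25, Tnfrsf1a and Fas. Tnfrsf25 encodes DR3, the receptor of TL1A, a cytokine that activates ILC2s alongside IL-33. It read 7.57, 7.12 and 7.12 in wild type and 7.0 and 7.08 in knockout, above the upper quartile on every array. Both knockout arrays were lower than all wild-type arrays, but wild type replicate 1 made most of the gap. The difference was -0.23 (SE 0.18, 95% interval -0.73 to 0.27, adjusted p 0.628), and -0.08 without that array.

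Tnfrsf1a encodes TNFR1, the widely expressed TNF receptor that can signal both to NF-kB and to cell death. It read 3.75, 3.98 and 3.98 in wild type and 4.21 and 4.498 in knockout. The groups did not overlap, at a dim probe set that lay below the array median on 4 of 5 arrays. The difference was 0.45 (SE 0.13, 1.37-fold) with a 95% interval of 0.08 to 0.83, an unadjusted p of 0.0292 and an adjusted p of 0.564 with limma. It was 0.31 without knockout replicate 2 and 0.60 without knockout replicate 1. The 9 lung epithelium markers, of cells that also carry TNFR1, averaged 5.67 and 4.83 in knockout replicates 1 and 2, and at most 4.495 in a wild-type array. Without Scgb1a1 and Bpifa1 the other 7 averaged 4.82 and 4.91, and at most 4.66 in wild type, and the median departure of all 9 was 0.11 and 0.19. The 8 endothelium markers averaged 5.0 and 5.29, and at most 4.895 in wild type. This mean was carried by Cldn5 and Cdh5, with differences of 1.59 and 1.44. The other endothelium markers tested, Pecam1, Tie1, Vwf and Kdr, differed by 0.09, 0.09, 0.07 and -0.15. The part of epithelial and endothelial cells in the signal of Tnfrsf1a was not tested.

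Fas encodes the receptor of Fas ligand, which triggers apoptosis. It read 4.13, 4.09 and 3.67 in wild type and 3.63 and 3.73 in knockout, below the median of every array. Wild type replicate 3 lay between the knockout arrays, so the groups overlapped. The difference was -0.28 (SE 0.18, adjusted p 0.623). Fas lies on chromosome 19, as Il33 does, with 26 protein-coding genes between them in GRCm38.p6.

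**Figure D2:**
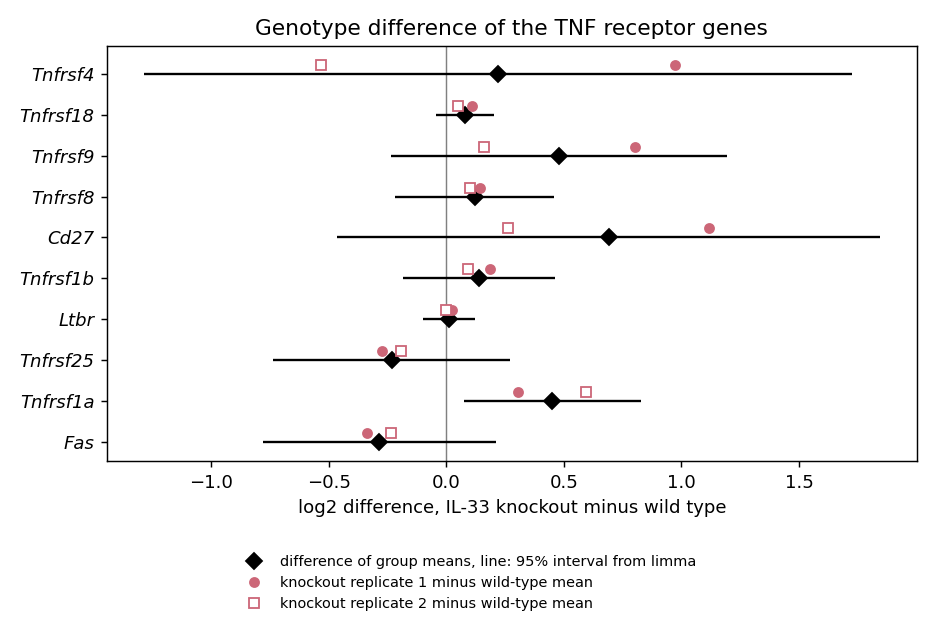
Log2 difference of knockout minus wild type (horizontal axis) for the 10 receptor genes, as black diamonds with limma's 95% interval, and each knockout array minus the wild-type mean in red. The interval of Tnfrsf1a alone leaves out 0, and the knockout arrays lie on opposite sides of 0 for Tnfrsf4.

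The knockout arrays differed in how far they departed from wild type. Of the members, only Tnfrsf4 had them on opposite sides of the wild-type mean, at 0.97 and -0.53. For Ltbr the departures were 0.02 in knockout replicate 1 and 0 in replicate 2. Knockout replicate 1 lay outside the wild-type range for all 10 members, above it for 8 and below it for 2. Over all genes tested, that array was outside the range for 47.8%, above for 31.1% and below for 16.6%. Knockout replicate 2 lay outside for 4 members, with 2 above and 2 below, where 54.0% of all genes tested were outside, 30.4% above and 23.6% below. In fits with replicate 2 as the lone knockout array, 0 members passed an adjusted p of 0.05 and 6.44% of all genes did; with replicate 1 alone, these were 0 members and 2.34% of genes. Equal values enter this count: knockout replicate 2 held the exact value of a wild-type array (within 1e-06) for 4 members, namely Tnfrsf8, Tnfrsf1b, Cd27 and Ltbr, and for 27.9% of all genes tested. Knockout replicate 1 did so for 0 members and 32.8% of genes. Of the members, 4 (40%) had 5 distinct values, against 36.4% of all genes tested. The median departure from the wild-type mean over the members was 0.17 for replicate 1 and 0.07 for replicate 2, against 0.03 and 0.01 over all genes tested.

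**Figure D3:**
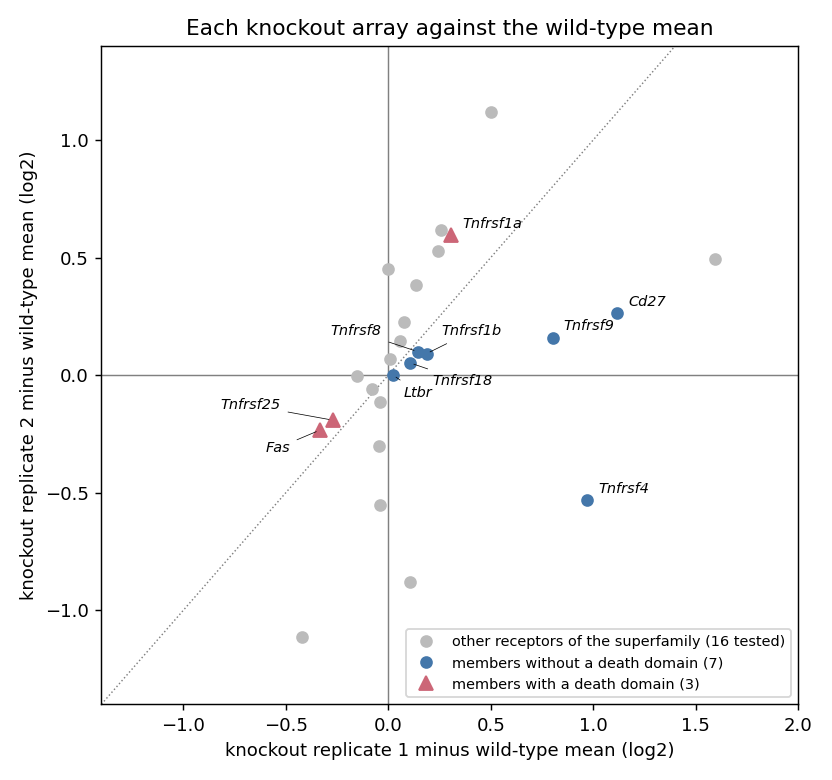
Knockout replicate 1 (horizontal axis) and knockout replicate 2 (vertical axis), each minus the wild-type mean on the log2 scale, 1 point per gene; on the dotted line both are equal. The 7 members without a death domain lie below the line and the 3 with one lie above it, a split made after the values were seen. The other receptors of the superfamily lie on both sides. Among them are 4 further death domain receptors, of which 3 lie below the line.

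The promoter sequences of the members were set beside these values, since ILC2 activation by IL-33 and signalling of the receptors themselves both lead to NF-kB and AP-1. RefSeq start sites gave 12 windows of 250 bases upstream for the 10 members. Searched on both strands, the kappa-B consensus was found in 3 of 12 windows, those of Tnfrsf8, Tnfrsf9 and Tnfrsf25, against 7.25% of 32851 windows of the same length. The AP-1 motif TGANTCA was found in 3 of 12, those of Tnfrsf8, Tnfrsf9 and Fas, against 6.75%, and the GATA motif AGATAA in 0 of 12, against 9.99%. The kappa-B matches of Tnfrsf8 and of Tnfrsf9 are each a pair of overlapping matches shifted by 1 base. The windows of the 3 members whose groups did not overlap are printed, with that of Tnfrsf9 as a window that holds both motifs; capitals mark the matches, and each reads 5′ to 3′ up to the base before the start. For Tnfrsf25 and Tnfrsf9, which have a pair of windows each, the one with a match is given.
Tnfrsf18 (GRCm38.p6, chr4:156026072-156026321, + strand): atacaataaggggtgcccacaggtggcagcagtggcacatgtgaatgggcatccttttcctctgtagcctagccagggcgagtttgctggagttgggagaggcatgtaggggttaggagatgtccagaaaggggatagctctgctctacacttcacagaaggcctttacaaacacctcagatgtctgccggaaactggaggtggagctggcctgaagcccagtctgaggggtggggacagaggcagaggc
Tnfrsf1a (GRCm38.p6, chr6:125349473-125349722, + strand): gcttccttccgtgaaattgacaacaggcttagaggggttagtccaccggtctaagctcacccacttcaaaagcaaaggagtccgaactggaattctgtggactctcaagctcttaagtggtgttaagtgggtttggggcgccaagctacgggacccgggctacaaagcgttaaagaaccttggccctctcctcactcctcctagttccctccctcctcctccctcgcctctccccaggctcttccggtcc
Tnfrsf25 (GRCm38.p6, chr4:152116093-152116342, + strand): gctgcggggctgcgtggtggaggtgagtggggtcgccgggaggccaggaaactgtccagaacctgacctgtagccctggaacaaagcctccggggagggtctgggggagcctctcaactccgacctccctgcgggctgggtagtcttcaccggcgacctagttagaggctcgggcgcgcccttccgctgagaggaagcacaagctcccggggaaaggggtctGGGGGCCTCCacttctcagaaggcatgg
Tnfrsf9 (GRCm38.p6, chr4:150927749-150927998, + strand): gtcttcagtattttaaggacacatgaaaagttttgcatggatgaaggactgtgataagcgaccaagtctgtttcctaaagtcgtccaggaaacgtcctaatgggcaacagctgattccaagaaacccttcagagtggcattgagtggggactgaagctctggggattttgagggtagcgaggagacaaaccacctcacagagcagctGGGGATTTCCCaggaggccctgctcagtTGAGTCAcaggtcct
The windows of Tnfrsf18 and Tnfrsf1a hold no match to the motifs searched, and the printed window of Tnfrsf25 holds a kappa-B match at bases 223 to 232. That of Tnfrsf9 holds kappa-B matches within bases 208 to 218 and an AP-1 match at bases 236 to 242. Matches did not sort by the direction of the difference, which was -0.23 for Tnfrsf25, 0.48 for Tnfrsf9 and 0.12 for Tnfrsf8. These are matches of letters and not measured binding. Of the members, 6 lie on chromosome 4, 3 on chromosome 6 and 1 on chromosome 19. Tnfrsf1b and Tnfrsf8, on chromosome 4, also have no protein-coding gene between them, and Ltbr and Tnfrsf1a, on chromosome 6, have 1.

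Of the 18 other receptors of the superfamily, 16 were tested with limma and none passed, with 2 at an unadjusted p below 0.05, against 7.64% of all genes tested. The groups did not overlap for 6 of 16, with 5 higher and 1 lower in knockout, against 11.6% higher and 6.32% lower over all genes, and the median difference was 0.07. Tnfrsf10b, a receptor of the death ligand TRAIL, read 5.88, 7.06 and 7.02 in wild type and 8.25 and 7.15 in knockout, a difference of 1.04 (SE 0.57). Knockout replicate 2 exceeded the highest wild-type array by less than the wild-type arrays differed among themselves. Tnfrsf26 differed by 0.81 (SE 0.37), 0.50 above the wild-type mean in knockout replicate 1 and 1.12 in replicate 2. Tnfrsf21, which encodes DR6, differed by -0.77 (SE 0.26), with departures of -0.42 and -1.11. Limma's adjusted p was 0.623 for the former pair and 0.610 for Tnfrsf21.

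Among the 11 ligands of the members, 9 were tested and none passed. Of these, 2, Tnf and Ltb, had an unadjusted p below 0.05 with limma, against 7.64% of all genes tested. There were 0 higher and 3 lower without overlap, against 11.6% and 6.32% of all genes tested. Tnf, the ligand of both TNF receptors, read 7.88, 8.65 and 8.27 in wild type and 5.38 and 6.80 in knockout. Tnfsf14, which encodes LIGHT, a ligand of the lymphotoxin beta receptor, differed by -0.59 (SE 0.26), with departures from the wild-type mean of -0.37 in knockout replicate 1 and -0.81 in replicate 2. The other of the 3 was Ltb, named here after its values were seen, at -0.39 (SE 0.12), with departures of -0.35 and -0.42. Lta, whose product joins that of Ltb in the lymphotoxin that binds this receptor, was named for the same reason. It read 4.33 to 4.42 in wild type and 4.90 and 4.42 in knockout, a difference of 0.27 (SE 0.17) with overlap of the groups. Their adjusted p values with limma were 0.514 for Tnf, 0.623 for Tnfsf14 and 0.598 for Ltb. The genes for the ligands of GITR and CD27, Tnfsf18 and Cd70, were too dim to be tested.

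Inside the cell, 21 of 24 genes of adaptors and proximal kinases were tested with limma, and 0 passed or had an unadjusted p below 0.05; 1 was higher and 2 were lower without overlap, against 11.6% and 6.32% of all genes, with a median difference of -0.04. Ripk3, a kinase of necroptosis, differed by 0.33 (SE 0.19), with departures of 0.20 in knockout replicate 1 and 0.46 in replicate 2. Ikbkb, the IkB kinase beta gene, differed by -0.48 (SE 0.28), and replicate 2 made nearly all of it: the departures were -0.06 and -0.91. Rbck1, of the linear ubiquitin ligase, differed by -0.34 (SE 0.17), likewise through replicate 2, with -0.10 and -0.59. Each had an adjusted p of 0.623. Of the NF-kB subunits and inhibitors, 11 of 12 were tested and 0 passed with limma or had an unadjusted p below 0.05, with 2 lower without overlap, against 6.32% of all genes. The inhibitor gene Nfkbie differed by -0.45 (SE 0.17), with departures of -0.24 in replicate 1 and -0.65 in replicate 2, and Nfkb2 by -0.37 (SE 0.18), with -0.11 and -0.63. The median of this list was -0.21 and came from 1 array: the median departure from the wild-type mean over its genes was -0.50 for knockout replicate 2 and 0.02 for replicate 1. Of the 11, 10 had a higher signal in replicate 1 than in replicate 2, and 1 had equal values. Of all 16635 genes tested, 7603 (45.7%) were higher in replicate 1, 6642 were lower and 2390 were equal. Of 5 genes of receptor shedding, 4 were tested; their median difference was -0.13 and the groups overlapped for each.

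**Figure D4:**
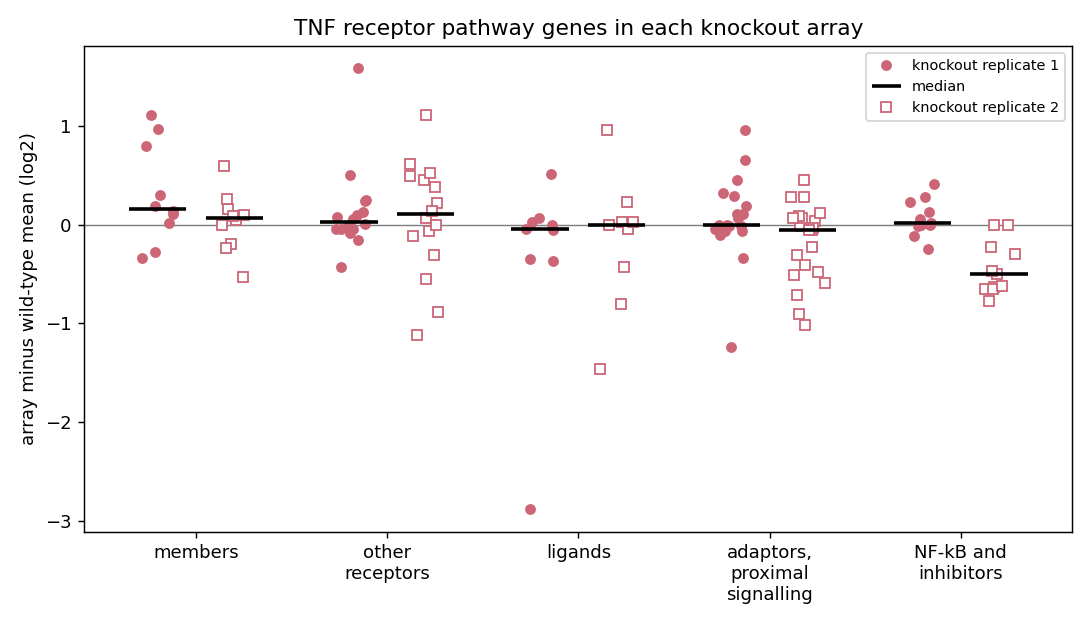
Departure of each knockout array from the wild-type mean (vertical axis, log2) for the members and 4 lists of related genes, 1 point per gene and array, with black bars at the medians; filled circles are knockout replicate 1 and open squares replicate 2. The NF-kB list has its median at -0.50 in replicate 2 and 0.02 in replicate 1, and the lowest ligand point in each array is Tnf.

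Regulatory T cells carry GITR and OX40 at high levels, and their markers were therefore read in the same arrays. Of 5 such markers, 4 were tested: Foxp3 read 3.46 to 3.75 in wild type and 4.16 and 4.36 in knockout, and Ctla4 held 3.07 on all 5 arrays, below the lower quartile. Averaged, the list gave 4.64 and 4.10 for knockout replicates 1 and 2, with wild type at 4.28 to 4.33. T cell markers had list means of 5.06 in both knockout arrays and 5.08 to 5.12 in wild type, with Cd4 at 3.70 to 4.16 over all arrays. Foxp3, below the array median on 4 of 5 arrays, was highest in knockout replicate 2, where Tnfrsf4 was lowest. The other 3 markers tested read higher in knockout replicate 1 than in replicate 2, as Tnfrsf4 did. These were Ikzf2 at 5.93 and 4.61, Ikzf4 at 5.42 and 4.74, and Lrrc32 at 4.63 and 3.72. In wild type Ikzf2 read 5.62 on each array, Ikzf4 4.74 to 5.39 and Lrrc32 3.86 to 4.34. The part of such cells in the signal of Tnfrsf4 was not tested.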

How the data were processed

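Biotin-labelled total RNA was read on Affymetrix arrays. The authors deposited log2 probe-set signals; the submitters' processing notes name RMA and Affymetrix Expression Console. Versions, settings and genome build are not given in the sources used here. As commonly run, RMA equalises the arrays and hides a shift of all transcripts.

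Of 41345 probe sets, 23521 had 1 symbol, 1814 several and 16010 none; 23328 of the first kind were found in RefSeq (GRCm38.p6). Each gene was read from its brightest probe set (22180 genes), and the dimmest 25% were left out (16635 tested). The test was limma 3.58.1 (R 4.3.3; lmFit, eBayes, Benjamini-Hochberg, threshold 0.05), knockout against wild type, without a block. On simulated arrays of 3 and 2 for 16635 genes it recovered 50% of genes changed 2-fold and 76% of those changed 4-fold. In that simulation 200 genes were changed, by 2-fold to 16-fold, and 13 unchanged genes were called. It gave each gene the same normal noise in both genotypes and no equal values. The real knockout arrays agreed less than the wild-type arrays, so these shares do not give the power in the real data. A two-sided exact permutation test cannot reach 0.05 here, so none is given. The number of arrays limits the precision.

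Members and lists were chosen with earlier results of these data known. Named were all members, up to 2 genes per direction and related list with the widest difference without overlap, and the 3 genes nearest to the member with the widest difference. Some marker genes whose value stood apart were named, after values were seen. Promoter windows came from RefSeq, GRCm38.p6.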

Additional observations from a re-analysis of the deposited data

How the results depend on the processing

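No member passed an adjusted p of 0.05 under any alternative run: no filter or a filter at 50% on dim genes (7 members left), averaged probe sets, quantile normalization, median centring, trend, robust or weighted variance models, the replicate block, an adjusted p below 0.10, or leaving out each array. The filters, averaged probe sets and trend and robust models cannot move a member's difference. Of 90 differences recomputed under the other settings, 88 kept their direction or were 0, and 2 reversed: Tnfrsf18 at -0.0059 after quantile normalization and Tnfrsf4, which ran from -0.53 without knockout replicate 1 to 0.97 without replicate 2. The count of members without overlap ranged from 3 to 10 when 1 array was left out. It was 10 without knockout replicate 2, where 47.8% of all genes tested did not overlap either. Without wild type replicate 3 it was 5, for which the share over all genes was not computed. A smaller group overlaps less. The genes passing over the whole table ranged from 0 to 1072 when 1 array was left out, with 1072 (6.44%) without knockout replicate 1 and 389 (2.34%) without replicate 2, where the lone array was assumed to vary like wild type; 0 members were among either. With the replicate number as a block, 0 members passed; the count of 3 without overlap does not depend on a block. Same-numbered arrays correlated in their deviations from the group mean at -0.05 for replicate 1 and 0.14 for replicate 2. Wild type replicate 3 and knockout replicate 1, which differ in number, gave 0.19. The deviations of 2 knockout arrays mirror each other, so these values are not independent and cannot settle a pairing. The labels do not say that the numbers pair the arrays. No member has a second probe set with 1 symbol, so single other probe sets gave no value. Dim probe sets, such as Fas and Tnfrsf1a, can understate a difference.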

Other observations

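Split by the intracellular part, a division made after the values were seen, the members differed in how the knockout arrays were ordered. All 7 receptors without a death domain read higher in knockout replicate 1 than in replicate 2, by 0.02 to 1.504 with a median of 0.10 on the log2 scale. All 3 with a death domain read lower in replicate 1, by -0.08 for Tnfrsf25, -0.10 for Fas and -0.29 for Tnfrsf1a. Over all 16635 genes tested, 7603 (45.7%) read higher in replicate 1, 6642 read lower and 2390 were equal. The order did not extend to the 4 further death domain receptors on the arrays: Tnfrsf10b, Tnfrsf21 and Ngfr read higher in replicate 1, by 1.10, 0.69 and 0.07, and Edar differed by -0.15. No test was made of this split.

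For some pairs the ligand and receptor genes are set side by side. Tnf was lower in both knockout arrays, with a difference of -2.18 (SE 0.53), while that of its receptor gene Tnfrsf1a was 0.45 and that of Tnfrsf1b 0.14. Ltb and Tnfsf14 differed by -0.39 and -0.59 and Lta by 0.27, and their receptor gene Ltbr by 0.01 with a 95% interval of -0.10 to 0.12. The Ltbr probe set held only 2 distinct values over the 5 arrays, with a wild-type SD of 0. Its interval therefore rests largely on the variance that limma shares over genes, not on the spread of replicates. The cause of such equal values is not known. Tnfsf9, the ligand gene of 4-1BB, read 5.98 in knockout replicate 2 and 4.90 to 5.19 on the other arrays, whereas Tnfrsf9 was highest in knockout replicate 1.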
